A study of Mus musculus with 18 samples.

Results

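The enzymes that write and erase methyl and acetyl groups on histone lysines were followed in single mouse oocytes. The set was defined by gene name: protein-coding genes whose symbols begin with Kdm, Kmt2, Kmt5, Setd and a digit, Ehmt, Suv39h or Ezh, or that are a numbered Hdac or Kat2 to Kat8, leaving out Y-linked genes. It held 57 of the 47069 genes in the deposited tables, and the definition uses no expression value. The oocytes came from C57BL/6JAusb mice at 2 stages, the germinal vesicle (GV) stage of prophase arrest and metaphase of the second meiotic division (MII), the stage at which the egg is ready for fertilization. Donors were young controls 4 weeks old, aged controls 12 months old, and aged mice 12 months old given nicotinamide mononucleotide (NMN), a precursor of NAD+, at 2 g per litre of drinking water for 4 weeks; both control groups drank water without NMN. Each library was the RNA in the supernatant of 1 lysed oocyte after its nucleus had been spun down. The design asks how these transcripts differ between GV and MII oocytes, between aged and young mice, and between aged mice with and without NMN.

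Histone methyltransferases with a SET domain place methyl groups on lysines such as H3K4, H3K9, H3K27, H3K36 and H4K20, and demethylases of the LSD1 and JmjC families remove them. Acetyltransferases of the MYST and GNAT families add acetyl groups, and histone deacetylases remove them. A growing oocyte deposits much of its chromatin methylation before it becomes transcriptionally silent at the end of the GV stage, so that little new transcription takes place between GV and MII, and histones are broadly deacetylated during meiotic maturation.

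Of 18 deposited libraries, the pair titled GV young control 1 and 2-1 held identical values and was counted once, and GV aged control 2-2, with 5009 counts, was left out. The 16 oocytes used were 2 GV young controls, 2 GV aged controls, and 3 in each of the other 4 groups (GV aged NMN, MII young control, MII aged control and MII aged NMN). They held 2756181 to 5586894 expected counts each, with a median of 3947705. The labels name no animals, so several oocytes may come from the same mouse and each group stands as 1 sample of its condition; no p-value can be given, and the SDs below are the spread between oocytes. MII aged NMN oocytes stood apart: 6400, 5640 and 7704 genes had at least 1 count in them, against 8515 to 13756 in the other 13 oocytes, and mitochondrial genes took 43.0, 33.2 and 6.18% of their counts. In the other 13 that share was 2.76 to 24.4%, so that MII aged NMN 2-1 lay within their range. The summed level of 5 oocyte markers was 427 to 3725 CPM in them and 2559 to 18627 CPM in the other oocytes. All 5 were detected in every oocyte but MII aged NMN 1, where Ooep was at 0, and MII aged NMN 2, where Zp3 was at 0.

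Levels are given as CPM, a gene's count relative to its library's total with TMM scaling, when 1 gene is compared between oocytes, and as TPM, a transcript measure that also accounts for length, when genes are compared with each other. Both are shares of a library, so the amount of RNA per oocyte is not measured. Per-oocyte values are listed in the order of the titles, which is 1 and 2-2 for GV young controls, 1 and 2-1 for GV aged controls, and 1, 2 and 2-1 for the other groups.

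Most of the family was present at low levels, and 2 members, the SET-domain methyltransferase gene Setd4 and the H3K27 methyltransferase gene Ezh2, made up most of its sum in every oocyte but MII young control 2-1. On the TPM scale Setd4 and Ezh2 together took 76.1 to 94.3% of the members' sum in GV oocytes and 27.8 to 68.4% in MII oocytes. Setd4 alone took 59.5 to 87.6% in GV oocytes and 1.27 to 14.5% in MII oocytes, whereas Ezh2 took 6.66 to 16.6% and 25.01 to 53.9%. The leading gene of the family was therefore Setd4 in each of the 7 GV oocytes and Ezh2 in each of the 9 MII oocytes.

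Setd4 encodes a SET-domain protein that has been linked to cell quiescence, and Ezh2 encodes the catalytic subunit of Polycomb repressive complex 2 (PRC2), which methylates H3K27. Kat8, also called MOF, encodes the MYST acetyltransferase of H4K16. Setd4, Kat8 and Ezh2 are the members on which the comparison of GV with MII oocytes turned, and their promoter windows in RefSeq on GRCm38.p6 are shown so that the genes can be placed. Each covers 300 bases around an annotated start on the gene's strand, at chr16:93603766-93604065 on the minus strand for Setd4, at chr7:127912267-127912566 on the plus strand for Kat8 (the first of 2 windows), and at chr6:47594981-47595280 on the minus strand for Ezh2. Capitals mark CCAAT boxes, the letters CCAAT or, on the other strand, ATTGG.
Setd4: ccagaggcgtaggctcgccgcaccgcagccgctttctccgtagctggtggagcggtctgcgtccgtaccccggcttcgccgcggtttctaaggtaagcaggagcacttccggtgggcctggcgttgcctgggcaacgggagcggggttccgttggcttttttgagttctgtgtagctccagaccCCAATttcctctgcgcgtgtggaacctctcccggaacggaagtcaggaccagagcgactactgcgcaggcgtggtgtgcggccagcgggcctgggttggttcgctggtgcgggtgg
Kat8: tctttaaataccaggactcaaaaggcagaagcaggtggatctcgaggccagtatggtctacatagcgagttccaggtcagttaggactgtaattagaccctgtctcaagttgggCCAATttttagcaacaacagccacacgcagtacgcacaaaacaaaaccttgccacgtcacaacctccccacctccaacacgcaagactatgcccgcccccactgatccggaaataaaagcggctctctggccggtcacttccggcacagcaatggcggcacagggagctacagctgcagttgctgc
Ezh2: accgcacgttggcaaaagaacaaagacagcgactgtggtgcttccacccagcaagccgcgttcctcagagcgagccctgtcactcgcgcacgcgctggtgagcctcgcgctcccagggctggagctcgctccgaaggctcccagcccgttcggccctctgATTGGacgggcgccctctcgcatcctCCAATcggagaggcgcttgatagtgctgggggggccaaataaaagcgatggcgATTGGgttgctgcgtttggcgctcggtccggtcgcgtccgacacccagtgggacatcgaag
The Setd4 window held 1 CCAAT box and 29 CpG dinucleotides, the Kat8 window 1 and 12, and the Ezh2 window 3 and 31. The Setd4 and Ezh2 windows held no match to CANNTG (the E-box, which reads the same on both strands), whereas the Kat8 window held 3. Among 32851 such windows of all genes, 37.4% held a CCAAT box, 72.3% an E-box and 13.6% the letters TATAAA or, on the other strand, TTTATA. In the first window of each of the 45 members with a window, 21 held a CCAAT box, 28 an E-box and 2 a TATAAA match. The median number of CpG in these was 22 against 7 over all windows. The values over all windows count every window of a gene, so the units differ.

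After Setd4 (mean of the 6 group means 1082 TPM) and Ezh2 (456 TPM), every other member had a mean of 52.5 TPM or less. The next were Kdm5a (52.5 TPM), which encodes an H3K4 demethylase, Kat8 (45.5 TPM) and Setd6 (42.2 TPM), whose product methylates the NF-kappa-B subunit RelA. They were followed by Ehmt1 (42.0 TPM), a component of the H3K9 methyltransferase complex GLP/G9a, Kat6b (39.3 TPM), encoding a MYST acetyltransferase, and Suv39h2 (34.9 TPM), encoding an enzyme of H3K9 trimethylation. Setd2 (27.4 TPM), the gene of H3K36 trimethylation, and Kmt2c (20.8 TPM), encoding MLL3, which acts at enhancers, closed the first 10. The neighbours from Kdm5a to Kmt2c differed by less than their spread between oocytes: Kdm5a itself ran from 14.4 to 157 TPM and Kmt2c from 1.09 to 56.0 TPM.

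The number of members with at least 1 count ran from 21, in MII aged NMN 2, to 47, in GV aged NMN 2 and MII young control 2-1. Hdac7 and Hdac11, encoding a class IIa and a class IV deacetylase, had no count in any of the 16 oocytes, which allows at most 0.0464 CPM over the 16 libraries if 3 counts are taken as the limit (counting error only). The GNAT acetyltransferase pair Kat2a and Kat2b summed to 0 to 2.48 TPM, the 4 class IIa deacetylases to 0 to 6.10 TPM, and Hdac6, Hdac10 and Hdac11 together to 0 to 3.48 TPM. Among deacetylases, class I was therefore the main one by level, with summed means of 45.7 TPM (SD 16.9, n = 2) in GV young controls and 43.3 TPM (SD 29.2, n = 3) in MII young controls. The H3K9 demethylases of the Kdm3 and Kdm4 families were also low, none of the 6 passing 15.5 CPM in any oocyte. In single oocytes Kdm3b still reached 12.3 CPM and Kdm4b 8.50 CPM.

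**Figure D1:**
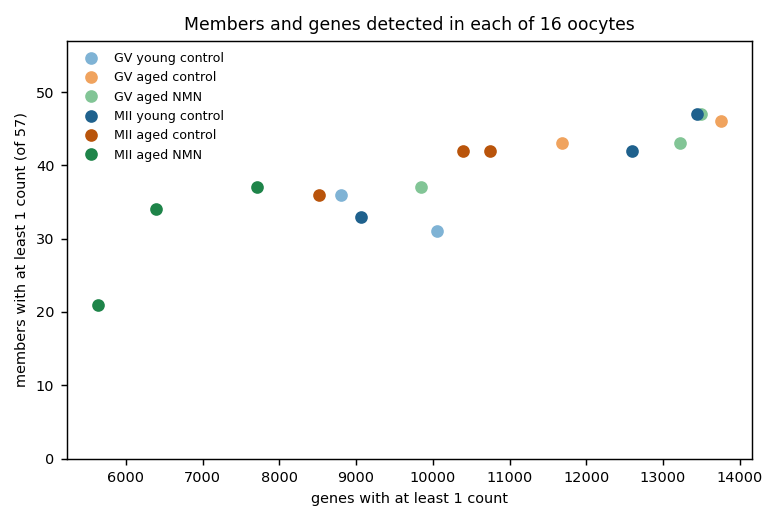
Number of the 57 members with at least 1 count (vertical axis) against the number of all genes with at least 1 count (horizontal axis); each point is 1 of 16 oocytes, coloured by group. MII aged NMN 2 lies lowest on both axes, with 21 members and 5640 genes.

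In several families the same paralog led in every oocyte that held either gene. Ezh2 made up 96.7 to 100% of the TPM of Ezh2 and its paralog Ezh1 in the 16 oocytes. Suv39h2 exceeded Suv39h1 in 16 of 16 oocytes, Ehmt1 exceeded Ehmt2 in the 15 oocytes that held either, Kmt2c exceeded Kmt2d in 16 and Kat6b exceeded Kat6a in 16. Kdm5a exceeded Kdm5c in 16 of 16 by TPM, which also accounts for length. By CPM, which does not, the GV medians were 10.2 CPM for Kdm5a and 12.2 CPM for Kdm5c. In MII oocytes they were 40.3 and 31.2 CPM. These TPM leads were not always wide, the lowest share of the pair being 65.6% for Suv39h2, 75.7% for Kmt2c and 62.0% for Kat6b, while Kdm5c reached 46.1% of its pair. No such steady lead was seen for the class I deacetylases, whose lead differed between oocytes, Hdac2 exceeding Hdac1 in 4 of 7 GV and 3 of 9 MII oocytes. Kdm6b, encoding an inducible H3K27 demethylase, likewise exceeded its paralog Kdm6a in 2 of 7 GV and 5 of 9 MII oocytes.

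**Figure D2:**
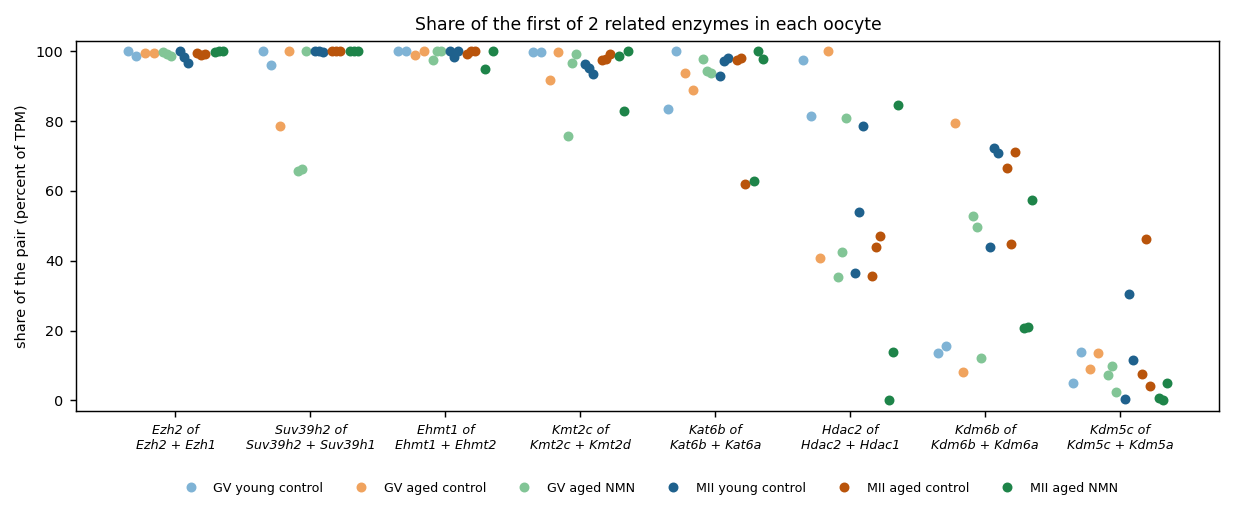
Share of the first gene in the summed TPM of 8 pairs of related enzymes (vertical axis, percent); each point is 1 oocyte, coloured by group, and oocytes with neither gene are not drawn. Ezh2 lies at 96.7% or above in every oocyte, whereas Hdac2 and Kdm6b spread over most of the axis.

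Comparisons between groups used the 32 members with a mean of at least 5 CPM over the 16 oocytes. Setd1b, with 4.74 CPM, fell just below this minimum and Kdm2a, with 6.45 CPM, just above it. The measure was the log2 of 1 group's mean over the other's, with 1 CPM added to each mean, and a member was called higher or lower when that ratio was at least 1 in size (2-fold) and no oocyte of 1 group overlapped the other group. The 7 comparisons share groups with each other, the aged controls entering both the age and the NMN comparisons of their stage, so their results are not independent.

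The transcripts of Setd4 and Kat8 were lower in MII than in GV oocytes under all 3 conditions. Setd4 stood at 3494 and 1919 CPM in GV young controls and at 336, 43.4 and 42.6 CPM in MII young controls. In aged controls it stood at 1108 and 1762 CPM in GV and at 247, 53.8 and 159 CPM in MII oocytes. In aged NMN oocytes it stood at 878, 1118 and 2827 CPM in GV and at 30.0, 34.4 and 193 CPM in MII oocytes. The lowest GV oocyte thus lay above the highest MII oocyte across all groups. The means were 19.2-fold lower in MII young controls (log2 ratio -4.26), 9.36-fold lower in MII aged controls (-3.22) and 18.7-fold lower in MII aged NMN oocytes (-4.21).

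Kat8 stood at 41.4 and 69.4 CPM in GV young controls and at 13.4, 8.09 and 5.99 CPM in MII young controls. In aged controls it stood at 149 and 68.5 CPM in GV and at 34.1, 11.8 and 18.5 CPM in MII oocytes. In aged NMN oocytes it stood at 255, 196 and 159 CPM in GV and at 1.97, 1.24 and 0.312 CPM in MII oocytes. Every GV oocyte held more Kat8 than every MII oocyte, and the gap was widest in aged NMN mice, the group that had the highest GV and the lowest MII values. The log2 ratios were -2.47 in young controls, -2.29 in aged controls and -6.55 in aged NMN oocytes, the last resting on 10 counts pooled over 3 MII oocytes.

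**Figure D3:**
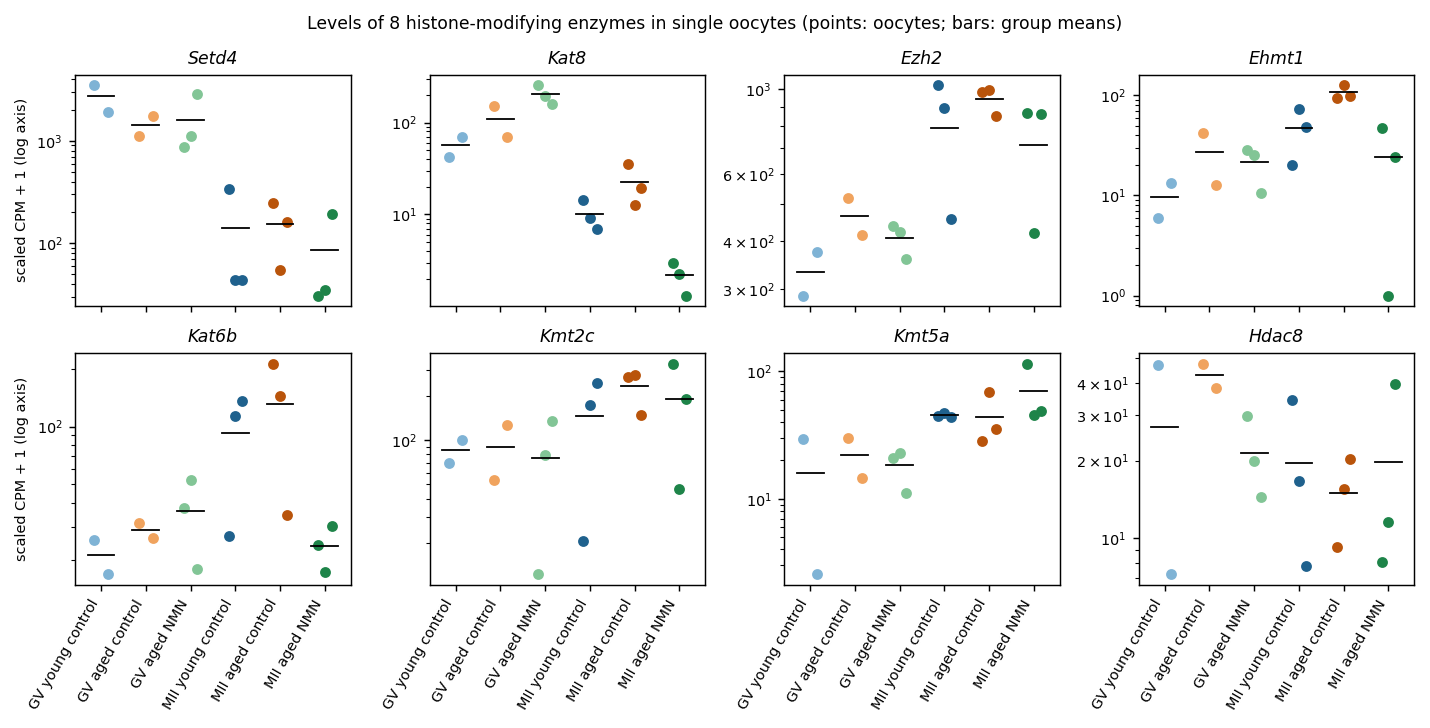
Scaled CPM plus 1 (vertical axes, log scale) of 8 members in the 6 groups; points are oocytes and bars are group means. Setd4 and Kat8 lie lower in all MII than in all GV oocytes, and Kat8 is lowest in MII aged NMN, at 0.312 to 1.97 CPM.

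Among the methyltransferases, the H3K27 enzyme Ezh2 went the other way. It stood at 287 and 373 CPM in GV young controls and at 1023, 889.9 and 456 CPM in MII young controls, and at 518 and 413 CPM in GV aged controls against 981, 993 and 847 CPM in MII aged controls. All MII controls lay above the GV controls of their age, with a mean 2.39-fold higher in young (log2 ratio 1.26) and 2.02-fold higher in aged controls (1.01). In aged NMN mice the values were 438, 421 and 358 CPM in GV and 864, 419 and 858 CPM in MII oocytes, and MII aged NMN 2 lay within the GV range. Within batch 2 the young ratio was 0.29, against 1.73 within batch 1, and in aged controls leaving out GV aged control 2-1 gave 0.86, below 2-fold. Its paralog Ezh1, which forms a less active PRC2, was 2.83-fold higher in MII than in GV aged controls (log2 ratio 1.40), from 7.89 and 9.08 CPM to 17.6, 31.5 and 22.9 CPM, but 9.72-fold lower in MII than in GV aged NMN oocytes (log2 ratio -2.52), from 4.57, 10.6 and 19.2 CPM to 1.97, 0 and 1.56 CPM.

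Of the H3K9 methyltransferases, Ehmt1 was higher in MII controls. It stood at 4.89 and 12.3 CPM in GV and at 19.0, 71.4 and 47.7 CPM in MII young controls, and at 41.0 and 11.8 CPM in GV and at 94.1, 126 and 98.1 CPM in MII aged controls. The groups did not overlap, and the log2 ratios were 2.30 in young and 1.97 in aged controls; without GV aged control 1 the latter was 3.07. In aged NMN mice they overlapped, with 27.7, 24.4 and 9.61 CPM in GV against 46.2, 0 and 23.4 CPM in MII oocytes. Suv39h2 overlapped between the stages under each condition, with log2 ratios of 1.18, 0.58 and -0.66.

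Of the 4 H3K4 methyltransferases with the minimum (Kmt2b, Kmt2c, Kmt2d and Setd1a), 1 was called higher in MII young controls, 2 in MII aged controls and 0 in MII aged NMN oocytes, where 19.3, 11.4 and 4.98% of all genes were; none was called lower. Kmt2d, encoding MLL4, stood at 0.515 and 1.04 CPM in GV young controls and at 2.30, 25.2 and 43.2 CPM in MII young controls, a log2 ratio of 3.79 that rests on 6 counts in the GV group. Kmt2b, encoding MLL2, which is needed for H3K4 methylation in mouse oocytes, stood at 14.7 and 5.40 CPM in GV and at 33.1, 68.3 and 19.2 CPM in MII aged controls, a log2 ratio of 1.90. Kmt2c was also higher there, at 52.6 and 125 CPM in GV and 268, 279.7 and 149 CPM in MII aged controls, a log2 ratio of 1.37 (0.88 without GV aged control 1). Within batch 2 the Kmt2c ratio was 0.25 and within batch 1 it was 2.36. Kmt2e, encoding a SET-domain protein with no known histone methyltransferase activity, passed the 2-fold size in aged controls, with 18.6 and 10.3 CPM in GV and 29.6, 39.5 and 25.4 CPM in MII oocytes. Its log2 ratio was 1.07, or 0.73 without GV aged control 2-1 and 0.88 without MII aged control 2. Kmt2e shares 972 exon bases with Srpk2 on the other strand, which was at 291 CPM in GV and 1074 CPM in MII aged controls, and the labels do not state whether counting used strand, so reads from that stretch cannot be told apart.

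Kmt5a, the H4K20 monomethyltransferase gene whose product acts in chromosome condensation, was higher in MII young control and MII aged NMN oocytes. It stood at 28.3 and 1.57 CPM in GV and at 43.7, 45.7 and 42.8 CPM in MII young controls, and at 19.9, 22.0 and 9.99 CPM in GV and 114, 44.7 and 47.8 CPM in MII aged NMN oocytes. The groups did not overlap in either case. The log2 ratios were 1.5 and 1.93, but the young one was 0.62 without GV young control 2-2 and 4.14 without GV young control 1. In aged controls the ratio was 0.99, with 1 MII oocyte inside the GV range. Among the remaining SET-domain genes, Setd6 was higher in MII aged NMN oocytes (54.1, 104 and 50.0 CPM against 43.4, 24.7 and 24.99 CPM in GV, log2 ratio 1.14, or 0.73 without MII aged NMN 2). Setd3, whose product methylates actin, was lower in MII young control oocytes (6.28, 2.33 and 4.75 CPM against 6.95 and 16.2 CPM in GV, log2 ratio -1.20). Without GV young control 2-2 the Setd3 ratio was -0.54, and without MII young control 2 it was -0.95.

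Among the demethylases, Kdm5a and Kdm2a were higher in MII than in GV young controls. Kdm5a stood at 9.27 and 10.2 CPM in GV and at 106, 24.1 and 44.2 CPM in MII young controls, a log2 ratio of 2.46 (1.71 without MII young control 1). It shares 251 of its 14158 exon bases with Ccdc77 on the other strand. The 16 oocytes held 1966 counts of Kdm5a and 571 of Ccdc77. Kdm2a, encoding an H3K36 demethylase with a CpG-binding domain, stood at 0 and 0.261 CPM in GV and at 21.1, 13.1 and 4.34 CPM in MII young controls. Its log2 ratio was 3.61, with 1 count in the GV group. Kdm2b, its paralog and a subunit of a variant Polycomb complex 1, went the other way in aged mice. It stood at 31.6 and 143 CPM in GV and 8.27, 26.8 and 14.5 CPM in MII aged controls, a log2 ratio of -2.33 (-0.89 without GV aged control 2-1). In aged NMN oocytes it stood at 23.8, 39.4 and 62.3 CPM in GV and 0, 0 and 10.3 CPM in MII oocytes, a log2 ratio of -3.27 (-5.42 without MII aged NMN 2-1). Kdm2b shares 627 exon bases with Rnf34 on the other strand, a gene that was higher in MII oocytes, at 248 against 147 CPM in aged controls and 335 against 131 CPM in aged NMN mice. Kdm6b reached 160.4 and 325 CPM in MII young controls 2 and 2-1 but 1.05 CPM in MII young control 1, below both GV young controls (2.32 and 6.00 CPM), so the groups overlapped.

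Among the acetyltransferases, Kat6b was higher in MII than in GV controls of both ages while Kat8 was lower. Kat6b stood at 24.5 and 15.9 CPM in GV and at 25.7, 113 and 135 CPM in MII young controls, and at 30.3 and 25.04 CPM in GV and at 213, 143 and 33.4 CPM in MII aged controls. The log2 ratios were 2.12 and 2.19, and the lowest MII oocyte lay within a few CPM of the highest GV oocyte in both cases. Within batch 2 the aged ratio was 0.40, against 2.51 within batch 1. Kat6a, its paralog, stood at 10.3 and 6.87 CPM in GV and at 35.5, 16.5 and 34.1 CPM in MII aged controls, a log2 ratio of 1.63. In young controls Kat6a overlapped, at 22.7 and 0 CPM in GV and 14.4, 21.0 and 12.8 CPM in MII oocytes. In aged NMN mice neither was higher: Kat6b stood at 36.3, 51.8 and 16.9 CPM in GV and at 22.9, 16.4 and 29.0 CPM in MII oocytes. Of the deacetylases, Hdac8, a class I enzyme that also acts on cohesin, was lower in MII aged controls, at 46.5 and 37.1 CPM in GV and 8.27, 14.5 and 19.2 CPM in MII oocytes, a log2 ratio of -1.51.

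In counts, 8 of the 32 members were called higher and 3 lower in MII young controls, where 19.3% of the 7899 genes with the same minimum were called higher and 19.9% lower. In aged controls 8 were higher and 4 lower, where 11.4% of genes were called higher and 26.6% lower. In aged NMN mice 2 were higher and 4 lower, where 4.98% were called higher and 29.5% lower. A higher mean in MII than in GV oocytes was seen in 23 of the 32 members in young controls, against 56.3% of genes, in 21 in aged controls, against 47.1%, and in 19 in aged NMN mice, against 39.9%. A lower mean was seen in 9, 11 and 13 members, against 43.7, 52.9 and 60.1% of genes. The median log2 ratio of the 32 members was 1.23 in young controls, 0.40 in aged controls and 0.25 in aged NMN mice, against 0.30, -0.11 and -0.55 over all genes with the minimum. In young controls 20 members were called higher without MII young control 1 and 13 without GV young control 1. In aged controls there were 13 higher and 7 lower members without GV aged control 1. Fewer oocytes make an absence of overlap easier for any gene. The share of all genes is not given for these counts, so they are no result about the members. The summed level of 12 cumulus and granulosa markers differed with stage in young controls too. It ran from 17.0 to 26.3 CPM at the GV stage, with 1 to 2 of the 12 detected, and from 31.4 to 287 CPM at MII, with 2 to 7 detected. The part of these markers in the results was not tested.

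**Figure D4:**
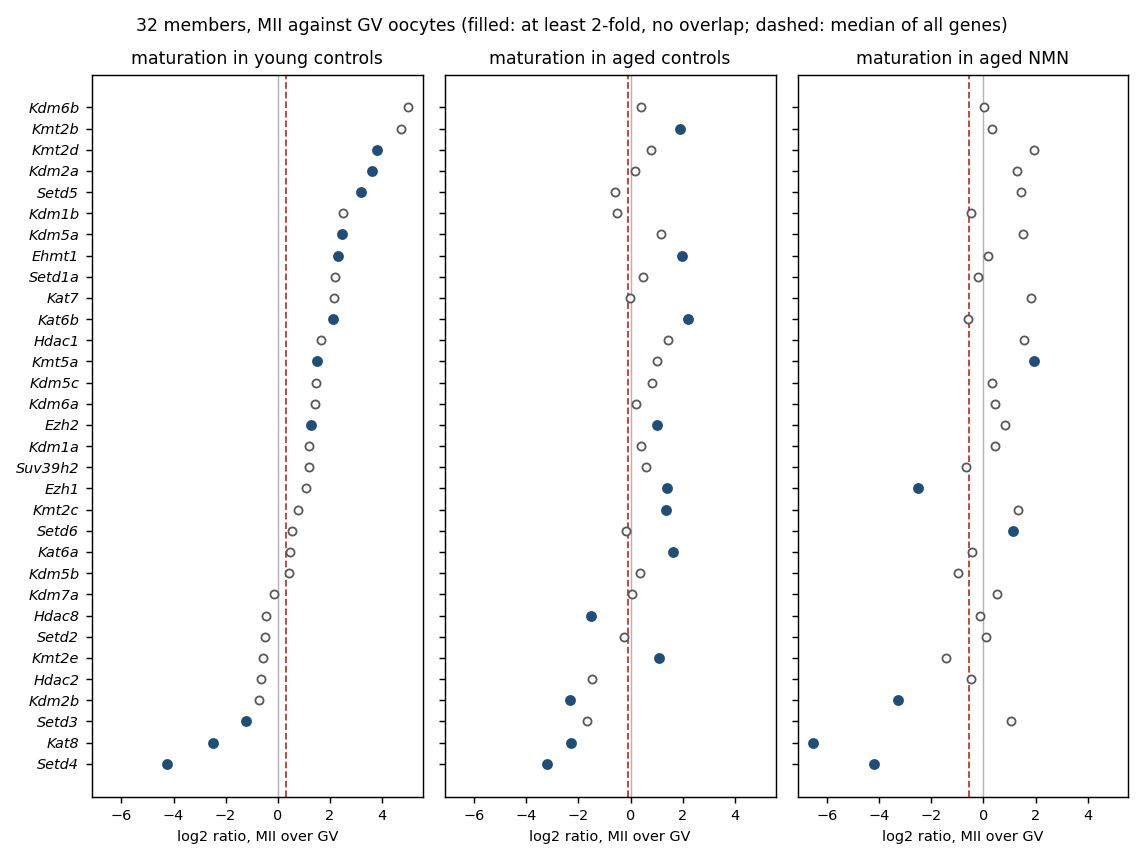
Log2 ratio of mean CPM plus 1, MII over GV oocytes (horizontal axes), for the 32 members in 3 conditions; filled points are at least 2-fold apart without overlap between oocytes, and dashed lines are the median of all 7899 genes. Setd4 and Kat8 are filled on the left in each panel.

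Between aged and young GV oocytes, the members called different were all higher in aged mice. They were 8 of 32, where 17.1% of all genes were called higher and 6.48% lower, and they included the H3K4 methyltransferase gene Kmt2b, the acetyltransferase gene Kat7 and the demethylase genes Kdm1a, Kdm2b and Kdm6b. The mean was higher in aged oocytes for 24 of the 32 members and lower for 8, against 55.8 and 44.1% of genes. The median log2 ratio of the 32 members was 0.55 against 0.14 over all genes. Within batch 1 the members' median was 0.32 against 0.23, and within batch 2 it was 0.30 against 0.17. Each batch then held 1 oocyte of each group, with the library counted once placed in batch 1. The leading members did not overlap but stayed under 2-fold, Setd4 being lower in aged oocytes (1108 and 1762 against 3494 and 1919 CPM, log2 ratio -0.91) and Ezh2 higher (518 and 413 against 287 and 373 CPM, log2 ratio 0.49). Each group held 2 oocytes, and 46 and 43 members had at least 1 count in the aged against 31 and 36 in the young ones. Over all genes, 13756 and 11687 were detected in the aged and 10051 and 8804 in the young oocytes, and the oocyte markers summed to 6601 to 10313 CPM in the aged and 4429 to 4952 CPM in the young ones. The part of these differences in the results was not tested.

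Setd5, encoding a SET-domain protein found with the NCoR-HDAC3 corepressor, had no count in either GV young control and stood at 14.7 and 18.9 CPM in GV aged controls. The mean of these aged oocytes was 43.3-fold the 0.389 CPM that 3 counts over the young group would give. That limit covers counting error only, not the spread between oocytes. Kmt2b likewise had no count in GV young controls and stood at 14.7 and 5.40 CPM in aged ones, with a mean 25.9-fold the same limit. Kat7, also called HBO1, the acetyltransferase of H3K14 and H4, stood at 8.50 and 9.39 CPM in young and at 30.3 and 38.3 CPM in aged oocytes. Its log2 ratio was 1.83, and it was 1.72 within batch 1 and 1.92 within batch 2. Setd5 and Kmt2b were also higher within each batch, at 3.98 and 4.32 for Setd5 and at 3.98 and 2.68 for Kmt2b. Each of these ratios sets 1 oocyte against 1. The young library of batch 1 was deposited under a title of batch 2 as well. If it belongs to batch 2, batch 1 holds no GV young oocyte, and the Kat7 ratio within batch 2 was 1.98.

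The demethylase genes Kdm6b, Kdm2b and Kdm1a each lost their call when 1 oocyte was left out. Kdm6b stood at 2.32 and 6.00 CPM in young and at 73.7 and 6.38 CPM in aged GV oocytes, a log2 ratio of 2.99 that was 0.52 without GV aged control 1. Kdm2b stood at 29.3 and 19.8 CPM in young and at 31.6 and 143 CPM in aged oocytes, a log2 ratio of 1.78 that was 0.35 without GV aged control 2-1. Kdm1a, which encodes the H3K4 demethylase LSD1, required in mouse oocytes, stood at 20.9 and 7.04 CPM in young and at 25.6 and 39.3 CPM in aged oocytes. Its log2 ratio of 1.16 was 0.83 without GV aged control 2-1 and 0.61 without GV young control 2-2. The summed level of 8 immune markers moved with age too, at 8.87 to 9.27 CPM in GV young and 14.2 to 237 CPM in GV aged controls; 1 to 2 of the 8 were detected in each oocyte and Ptprc, Lyz2, Cd74, C1qa and C1qc were at 0 in all 4. The part of these markers in the results was not tested.

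In MII oocytes few of these genes were called different between aged and young controls. Ehmt1 was the single member called higher in aged mice, at 94.1, 126 and 98.1 CPM against 19.0, 71.4 and 47.7 CPM in young ones, and none was called lower, where 2.23% of all genes were called higher and 5.75% lower. Its log2 ratio was 1.19, and 0.82 without MII young control 1. Of the 32 members 15 had a higher and 17 a lower mean in aged mice, against 36.7 and 62.9% of genes, with a median log2 ratio of -0.03 against -0.29 over all genes. The members' median was 0.49 within batch 1 and -0.74 within batch 2. Setd4 and Ezh2, the leading members, had log2 ratios of 0.12 and 0.25 with overlapping oocytes, or -0.40 to 1.81 and -0.02 to 0.48 when 1 oocyte was left out. The young group was widely spread. Kdm6b ran from 1.05 to 325 CPM and Setd2 from 0.418 to 75.03 CPM in its 3 oocytes, MII young control 1 being the lowest in both.

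In GV oocytes of aged mice, NMN went with lower levels of 4 members, Setd5, Kdm1a, Kat7 and Kdm5c, and with none called higher. Over all genes 4.18% were called lower and 1.99% higher. Of the 32 members 10 had a higher and 22 a lower mean with NMN, against 52 and 47.9% of genes, with a median log2 ratio of -0.27 against 0.03 over all genes. Setd5 stood at 14.7 and 18.9 CPM in aged controls and at 0, 0.271 and 8.07 CPM with NMN, a log2 ratio of -2.24. Kdm1a stood at 25.6 and 39.3 CPM against 12.8, 10.3 and 5.00 CPM, a log2 ratio of -1.69 that was -1.08 within batch 1 and -2.75 within batch 2. Both lay lower in every NMN oocyte than in either aged control.

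Kat7 stood at 30.3 and 38.3 CPM in GV aged controls and at 15.5, 24.97 and 1.15 CPM with NMN, a log2 ratio of -1.25 that was -0.73 without GV aged NMN 2-1. Kdm5c, encoding an X-linked H3K4 demethylase, stood at 27.2 and 15.2 CPM in aged controls and at 7.32, 12.2 and 6.15 CPM with NMN. Its log2 ratio of -1.22 was -0.76 without GV aged control 1. Setd5, Kdm1a and Kat7 had also been called higher in aged than in young controls, but both comparisons use the same 2 aged oocytes, so the opposite directions are not independent. The leading members overlapped, with log2 ratios of 0.16 for Setd4 (-0.52 to 0.54 with 1 oocyte left out) and -0.20 for Ezh2 (-0.35 to -0.03). Kat8 was higher in each NMN oocyte than in either aged control (255, 196 and 159 against 149 and 68.5 CPM), with a log2 ratio of 0.90, below the 2-fold size.

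In MII oocytes of aged mice, NMN went with lower levels of 9 members and a higher level of 1, where 13.6% of all genes were called lower and 1.9% higher. The lower ones were genes of H3K9 and H3K27 methyltransferases, H3K4 and H3K27 demethylases, MYST acetyltransferases and the SET-domain protein gene Kmt2e. The mean was higher with NMN for 10 and lower for 22 of the 32 members, against 37.3 and 61.3% of genes. The median log2 ratio of the 32 members was -0.61 against -0.40 over all genes. Without MII aged control 1 or 2 the members' median was -0.34, as was that of all genes. The number of detected genes given above was lower in all 3 MII aged NMN oocytes. In batch 1 their mitochondrial share was also higher; in batch 2 it was 6.18%, against 9.09% in the aged control, with an oocyte marker sum of 3725 against 3232 CPM. The part of these measures in the results was not tested. The cumulus and granulosa markers summed to 0 to 43.4 CPM in MII aged NMN and to 17.1 to 59.8 CPM in MII aged control oocytes, with 0 to 1 and 1 to 5 of the 12 detected and Amh, Foxl2 and Fshr at 0 in all 6.

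Kat8 was lower in each NMN oocyte than in any aged control. It stood at 34.1, 11.8 and 18.5 CPM in MII aged controls and at 1.97, 1.24 and 0.312 CPM with NMN, 18.3-fold lower (log2 ratio -3.37), and the ratio was -3.20 within batch 1 and -3.89 within batch 2. Ezh1 stood at 17.6, 31.5 and 22.9 CPM in aged controls and at 1.97, 0 and 1.56 CPM with NMN, with log2 ratios of -3.52 in all, -3.68 within batch 1 and -3.22 within batch 2. Its abundant paralog Ezh2 overlapped, with a log2 ratio of -0.40. Ehmt1 stood at 94.1, 126 and 98.1 CPM against 46.2, 0 and 23.4 CPM, a log2 ratio of -2.15 that was -2.20 and -2.02 within the batches and -3.07 without MII aged NMN 1. Kdm1a stood at 31.7, 32.02 and 65.4 CPM against 15.8, 3.72 and 19.4 CPM, with -1.66 in all and -1.61 and -1.70 within the batches. These 4 genes were thus lower with NMN in both batches.

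The other lower members had their difference mostly in batch 1. Kat6b stood at 213, 143 and 33.4 CPM in aged controls and at 22.9, 16.4 and 29.0 CPM with NMN, a log2 ratio of -2.46 that was -3.11 within batch 1 and -0.20 within batch 2. Kmt2e stood at 29.6, 39.5 and 25.4 CPM against 0, 0 and 23.7 CPM, with -1.87 in all, -5.15 within batch 1 and -0.10 within batch 2. Kdm5c stood at 35.02, 48.8 and 31.2 CPM against 5.92, 0 and 27.5 CPM, with -1.70 in all, -3.44 within batch 1 and -0.18 within batch 2. Suv39h2 stood at 106, 131 and 41.8 CPM against 7.11, 41.6 and 41.2 CPM, with -1.60 in all, -2.23 within batch 1 and -0.02 within batch 2. For these 4 genes the oocyte pair of batch 2 was nearly level. With MII aged NMN 2 placed in batch 2, as its title could also be read, the batch 2 ratios were -0.54 for Kat6b, -1.04 for Kmt2e, -1.13 for Kdm5c and -0.01 for Suv39h2. Without MII aged NMN 2-1 the ratio was -5.02 for Kmt2e and -3.31 for Kdm5c. The ninth lower member, Kdm6b, is beyond the 8 named by rule and was added after its values were seen. It stood at 57.9, 64.0 and 37.4 CPM in aged controls and at 15.4, 17.1 and 31.2 CPM with NMN, with a log2 ratio of -1.28 in all, -1.85 within batch 1 and -0.25 within batch 2.

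Setd3 was the single member called higher with NMN in MII oocytes. It stood at 9.33, 7.25 and 0.363 CPM in aged controls and at 47.4, 34.4 and 51.8 CPM with NMN, 7.89-fold higher (log2 ratio 2.78). All 3 NMN oocytes lay above all other MII oocytes, whose highest value was 9.33 CPM, and the ratio was 2.17 within batch 1 and 5.28 within batch 2. Setd4 overlapped, at 247, 53.8 and 159 CPM in aged controls and 30.0, 34.4 and 193 CPM with NMN.

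**Figure D5:**
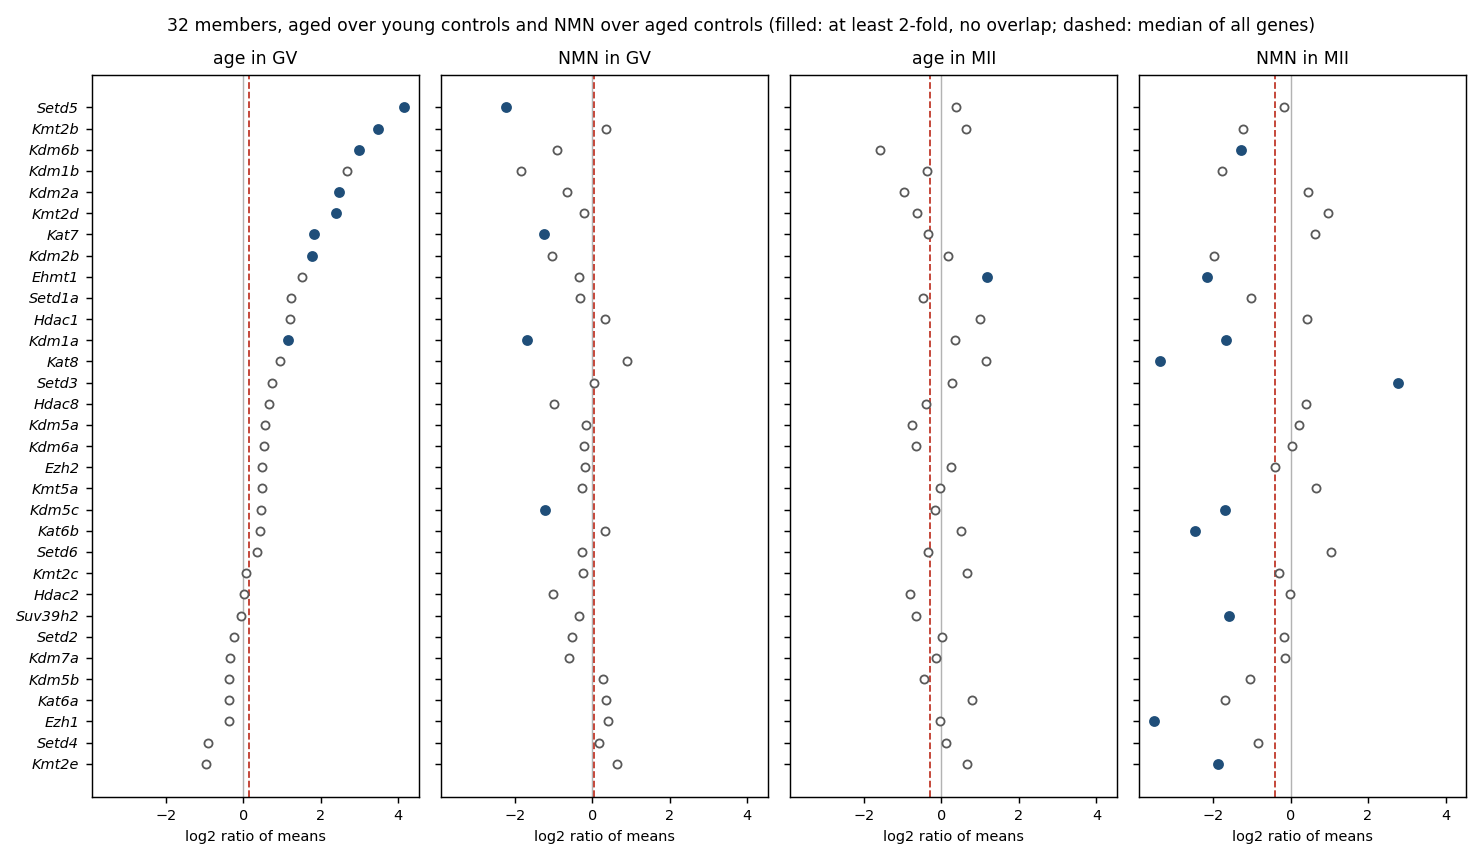
Log2 ratio of mean CPM plus 1 (horizontal axes) for the 32 members, aged over young controls and NMN over aged controls, in GV and MII oocytes; filled points are at least 2-fold apart without overlap between oocytes, and dashed lines are the median of all 7899 genes. Comparisons of the same stage share the aged controls; Setd3 is the filled point on the right in the panel of NMN in MII oocytes, and Ezh1 and Kat8 are the leftmost.

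Members were also summed by class on the TPM scale. The 4 H3K9 methyltransferases summed to 147 TPM (SD 99.2, n = 3) in MII young control oocytes, 179 TPM (SD 74.5, n = 3) in MII aged controls and 22.4 TPM (SD 16.9, n = 3) in MII aged NMN oocytes. Their highest MII aged NMN oocyte, at 40.9 TPM, lay below the lowest MII aged control, at 96.0 TPM. On the TPM scale most genes were lower there. The median log2 ratio of NMN over aged controls in MII oocytes was -0.92 over all genes with the minimum and -1.10 over the members. The 5 H3K4 demethylases summed to 26.6 TPM (SD 0.163, n = 2) in GV and 181 TPM (SD 55.3, n = 3) in MII young controls, and their ranges did not overlap. The TPM medians for MII over GV young controls were 0.75 over all genes and 1.51 over the members. The 5 MYST acetyltransferases summed to 18.4 TPM (SD 3.57, n = 3) in MII aged NMN oocytes, where the highest, at 22.0 TPM, lay below the lowest MII aged control, at 23.9 TPM. On the CPM scale the same class overlapped, at 149, 66.1 and 39.3 CPM in MII aged NMN and 342, 200.1 and 102 CPM in MII aged control oocytes. The 4 class I deacetylases overlapped between the 3 MII groups, with ranges of 18.5 to 75.5, 18.4 to 40.3 and 6.08 to 95.9 TPM.

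Genes of partner proteins and of other modifying enzymes outside the members were read from 7 lists, whose counts stand against the shares of all genes already given. These were 19.3% higher and 19.9% lower in MII than in GV young controls, 11.4 and 26.6% in aged controls and 4.98 and 29.5% in aged NMN mice. Of 8 PRC2 partners with the minimum, 1 was called higher and none lower in MII than in GV young controls, and the same count held for aged controls and for aged NMN mice. In both aged groups it was Aebp2, a DNA-binding subunit, which went from 22.6 to 61.5 CPM in aged controls (log2 ratio 1.41) and from 14.96 to 73.8 CPM in aged NMN mice (2.23). Of 12 deacetylase complex partners, 4 were called higher and 2 lower in MII aged controls. In young controls 1 was called higher and 1 lower, and in aged NMN mice 0 and 1. In aged controls the corepressor gene Ncor1 went from 37.3 to 135 CPM (log2 ratio 1.83) and the Sin3-associated gene Sap18 from 113 to 50.3 CPM (-1.15). Sap18 was also lower in MII young control (log2 ratio -2.25) and MII aged NMN oocytes (-2.42).

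Of 7 partners of the COMPASS H3K4 methyltransferases, 3 were called higher and 1 lower in aged than in young GV oocytes, where 17.1 and 6.48% of all genes were. Rbbp5, a core subunit, went from 0.515 to 20.5 CPM (log2 ratio 3.83), and Dpy30, another, from 1857 to 749 CPM (-1.31). Of 16 other acetyltransferases and complex partners, 5 were called higher and 2 lower between GV and MII oocytes of young controls, and 4 and 2 between those of aged controls. The SAGA and ATAC adaptor gene Tada2a was higher in both, with log2 ratios of 1.90 and 1.85, and lower with NMN in MII oocytes, at 102 against 27.4 CPM (-1.87). Of 8 other histone lysine methyltransferases, 1 was called higher and 1 lower in MII than in GV young controls. In aged controls the counts were 2 and 2, and in aged NMN mice 0 and 1. The H3K9 enzyme gene Setdb1 went from 150.1 to 309 CPM between GV and MII aged controls (1.03). It was at 71.9 CPM in MII aged NMN oocytes (-2.09 against aged controls). Of 4 other JmjC demethylases, 3 were called lower in MII young controls and 1 in each aged group, that 1 being Riox2, with log2 ratios of -3.07, -2.74 and -2.52. Of 3 arginine methyltransferases, 1 was called higher and 0 lower in MII young controls, and 0 and 1 in each aged group. Prmt7 was lower in MII than in GV aged controls (22.2 against 5.32 CPM, log2 ratio -1.88) and Prmt2 higher in MII young controls (12.4 against 51.6 CPM, log2 ratio 1.97).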

How the data were processed

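RNA sequencing libraries of 18 single oocytes were deposited, each as a table with the authors' expected count and TPM per gene, per the file headers; the expected counts are not normalized, and the TPM values were scaled by the authors for length and library. Per the submitters' processing notes, the builds were mm10 and GRCm38 and the tools included TopHat2 2.1.1, Cufflinks, FastQC 0.11.8 and Trim Galore 0.4.5; which tool counted reads, and whether by strand, is not given in the sources used here. GENCODE vM21 matched 46574 of 47069 identifiers, and all member coordinates are GRCm38. A library under 100000 counts was left out, and 2 identical files were counted once. The title of MII aged NMN 2 says batch 2 with no further number; it was taken for the second oocyte of batch 1, where the merged GV young library was placed too.

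Expected counts were rounded to whole numbers and scaled with TMM factors (edgeR 4.0.16, R 4.3.3). Means were compared as log2 ratios after adding 1 CPM among genes with a mean of at least 5 CPM. A call needs a log2 ratio of at least 1 and no overlap between oocytes. No test was made. At 2756181 to 5586894 counts, 3 counts correspond to 0.537 to 1.09 CPM, which covers counting error only. Members were named per comparison, up to 8 per direction, by the largest ratio among called members whose higher mean was at least 10 CPM, plus the 10 with the highest mean TPM; related genes, up to 2 per list, by the same rule. Kdm5d (Y-linked), Kdm6bos and Kdm4dl (not protein-coding) match the name patterns and were left out. Members, lists and comparisons were chosen with earlier results of these data known. Alternatives were library totals, DESeq2 1.42.0 size factors, TPM, another added constant, other minimums, the small library kept, each oocyte left out and each batch alone. Calculations were tested on simulated data (Python 3.11.15, pandas 2.3.3).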

Additional observations from a re-analysis of the deposited data

Results flagged for a closer look

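Kat8 was higher in each GV aged NMN oocyte than in either GV aged control (log2 ratio 0.90) and lower in each MII aged NMN oocyte than in every MII aged control (log2 ratio -3.37). The opposite directions of all oocytes at the 2 stages drew attention to it, and the difference between the stages was not tested.

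Ezh1 was higher in each MII than in each GV aged control oocyte (log2 ratio 1.40) and lower in each MII than in each GV oocyte of aged NMN mice (log2 ratio -2.52). This difference between the conditions was not tested either, and it rests on 10 counts pooled over the 3 MII aged NMN oocytes.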

How the results depend on the processing

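No paired analysis was possible because no result comes from a test and the numbers in the titles name oocytes, not pairs. The causes of the shifts below were not tested. Leaving out 1 oocyte at a time gave, for MII over GV in young controls, a members' median of 0.84 to 1.66 with 8 to 20 higher and 2 to 6 lower members. The same gave 0.25 to 0.75, 7 to 13 and 3 to 7 in aged controls, and -0.04 to 0.47, 2 to 6 and 4 to 8 in aged NMN mice. For age it gave 0.34 to 1.26, 8 to 14 and 2 to 4 in GV (0 lower with all oocytes), and -0.29 to 0.33, 1 to 3 and 0 to 2 in MII. For NMN it gave -0.40 to 0.00051, 0 to 4 and 4 to 9 in GV, the median turning above 0 without GV aged control 1, and -1.32 to -0.34, 1 to 2 and 10 to 13 in MII, against 9 lower members with all oocytes. These counts have no share of all genes beside them, and fewer oocytes make an absence of overlap easier for any gene.

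With TPM, 24 members passed the minimum. Of them 3 were higher in MII young controls, 2 in MII aged controls, 1 in MII aged NMN and 0 with age in MII. The medians were 0.69 for age and -0.70 for NMN in GV. With library totals, 1 member was higher in MII aged NMN and 2 with age in MII, and the median for age in GV was 0.75. Without a minimum 55 members were compared, and with that of filterByExpr 47, against 32 in the main setting. Under either setting 5 were lower in MII young controls, 10 in MII aged controls and 1 with age in GV. With NMN in MII, 2 were higher. The share of all genes called is not given for these alternative settings. With the library of 5009 counts kept, the median was 0.96 for MII over GV in aged controls with 0 lower members, -0.0043 for age in GV with 0 higher and 1 lower, and 0.29 for NMN in GV with 1 higher and 0 lower, the last 2 medians changing sign. The medians of all genes moved too, to 0.40, -0.37 and 0.57, from -0.11, 0.14 and 0.03 without that library. Within batches 1 and 2 the median for age in GV was 0.32 and 0.30 (0.34 with the merged library in batch 2), and for NMN in MII it was -1.49 within batch 1 and -0.11 within batch 2. Over all genes the matching medians were 0.23, 0.17 and 0 for age in GV, and -0.90 and -0.0013 for NMN in MII. The median for MII over GV in aged NMN mice was -0.06 with TPM, -0.05 without a minimum and -0.22 with filterByExpr. The median of all genes moved with the scaling too: in MII over GV young controls it was 0.30 with TMM, -0.04 with DESeq2 size factors, 0.44 with library totals and 0.75 with TPM. No member named by the rule changed direction in the comparison it was named for. Over all 7 comparisons, 652 of these members' alternative values moved by less than the spread between oocytes and 50 by more. With 2 or 3 oocytes a group, calls depend on single oocytes.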

Other observations

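Markers of other cells were read in each oocyte. The cumulus and granulosa markers summed to at most 88.2 CPM in GV and 287 CPM in MII oocytes, with up to 6 and 7 of 12 detected, and the 8 immune markers to at most 237 and 42.9 CPM. The 5 endothelial markers summed to at most 15.5 CPM in GV and 61.8 CPM in MII oocytes, the 6 theca and stroma markers to at most 9.83 and 15.9 CPM, and the 5 erythroid markers to 0 and at most 29.8 CPM. The highest erythroid sum belonged to an MII aged NMN oocyte.

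Some members were seen in 1 group in the main. Setd1b, encoding an H3K4 methyltransferase, fell just under the minimum for comparisons but stood at 7.50, 37.8 and 24.0 CPM in MII aged NMN oocytes and at no more than 1.90 CPM in the other 13. Hdac6, encoding a cytoplasmic deacetylase of tubulin, stood at 18.8 and 14.9 CPM in GV young controls and at no more than 5.79 CPM in the other 14 oocytes. Both were picked out after their values had been seen, and no comparison was made for them.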
